A study of Oryza sativa Japonica Group with 4 samples.

Results

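The transcripts described here had lower array intensities in rice roots supplied with glutamine than in roots kept without nitrogen. A probe set, the group of short probes that together give 1 intensity per array, was taken as a member when both plus glutamine arrays were below both minus N arrays and the group means on the log2 scale differed by at least 1.5-fold. Of 57258 probe sets that were not array controls, 134 (0.234%) met this rule, and leaving out 2 annotated as DREB1G or DREB1E left 132 members. With 1 probe set per gene, 58 of 17905 genes (0.324%) met it. The 132 comprised 71 probe sets of 67 annotated genes and 61 probe sets with no annotated gene. The roots came from seedlings of the japonica cultivar TNG67 that had spent 3 days germinating in darkness and 2 weeks in hydroponic solution from which the ammonium nitrate had been left out. At 17 days of age the seedlings were moved for 30 min to solution with 2.5 mM glutamine (plus glutamine, 2 arrays) or to solution again without nitrogen (minus N, 2 arrays). All seedlings had therefore been without nitrogen before the transfer, and each group held 2 biological repeats, numbered 1 and 2.

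Glutamine is the first organic product when plants assimilate ammonium, and it passes its nitrogen on to other amino acids, nucleotides and many further compounds. Roots also take it up directly, and amino acids of this kind are known both as nutrients and as cues that change gene expression. Among the proteins that members encode are DNA-binding regulators: homeodomain-leucine zipper (HD-Zip) proteins bind DNA as dimers and are known from plant development and water-deficit responses, heat stress factors bind promoters of chaperone genes, and AP2/ERF proteins are a plant family with roles in stress and ethylene responses.

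The same 4 arrays chose the members, so the values below are a description and no test supports them. In a fit of limma over all 57258 probe sets, 0 (0.0%) were lower at a Benjamini-Hochberg adjusted p under 0.05, where the smallest adjusted p was 1, and 52 were lower at an unadjusted p under 0.05, of which 44 were members. The mirrored rule gave 699 probe sets (1.22%) that were higher with glutamine. Disregarding the fold, 4704 probe sets (8.22%) were lower without overlap of the groups and 4785 (8.36%) were higher.

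The arrays also differed in other measures, some by replicate number and others with minus N replicate 2 at one end. Of 9 root marker genes, 0 were lower and 2 higher without overlap, beside 9.03% and 10.1% of all genes. Their summed intensity was 9414.6 and 12404.5 in plus glutamine roots, against 9150.1 and 12003.6 in minus N roots, each pair for replicates 1 and 2 in that order. Lsi1, a silicon channel of the root, gave 7279.0 and 8999.3 with glutamine and 7321.4 and 8613.5 in minus N roots. Lsi1 thus made up most of each sum, and the sums say little about the other root markers. The median log2 value of the root markers was 6.04 in minus N replicate 1 and 7.75 in minus N replicate 2. Both plus glutamine medians lay between these. The 7.75 was the value of CASP1, at 215.2, whereas SCR1, SHR1 and WOX11 were lowest in minus N replicate 2. Root content was therefore not shown to be matched between the arrays. For 6 green shoot markers the sums were 12211.3 and 12759.4 with glutamine, against 10085.5 and 14176.9 in minus N roots, so the lowest and the highest sums were the minus N repeats. Of the 6, 0 were higher or lower without overlap. The seed storage markers, 10 genes, summed to 1446.2 and 1578.2 with glutamine and to 1442.4 and 1237.6 in minus N roots. Without overlap, 0 of them were lower and 1 was higher. The ratio of 3' to 5' Gapdh control probe sets, a gauge of RNA integrity, was 6.14 and 4.41 with glutamine and 6.85 and 4.30 in minus N roots, and it followed the replicate number. The part of these differences in the members' values was not tested. In such bulk samples, fewer cells of a type and less RNA per cell cannot be told apart.

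Among the members, the array with the highest value was most often minus N replicate 2 and the one with the lowest most often plus glutamine replicate 2. Median intensities over the members were 41.9 and 35.5 in plus glutamine roots, against 51.7 and 82.2 in minus N roots. Over all 57258 probe sets the corresponding medians were 19.7 and 22.2 with glutamine and 19.9 and 21.7 in minus N roots. The highest of the 4 values was minus N replicate 2 for 104 members and minus N replicate 1 for 28. Minus N replicate 2 was thus above replicate 1 for 78.8% of members, beside 62.8% of all probe sets. Plus glutamine replicate 2 was below replicate 1 for 74.2% of members, beside 33.1% of all. Relative to each member's own mean over the arrays, the median log2 value was -0.26 and -0.48 in the plus glutamine arrays and 0.11 and 0.64 in the minus N arrays. Both plus glutamine medians were below both minus N medians, which the rule fixes. It sets no distance between the minus N repeats, but that distance is not independent of it. A single high minus N array raises the group mean and helps a probe set to reach the minimum fold. Without minus N replicate 2, 51 members met the rule. How much of the distance came from the choice of members was not tested.

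**Figure D1:**
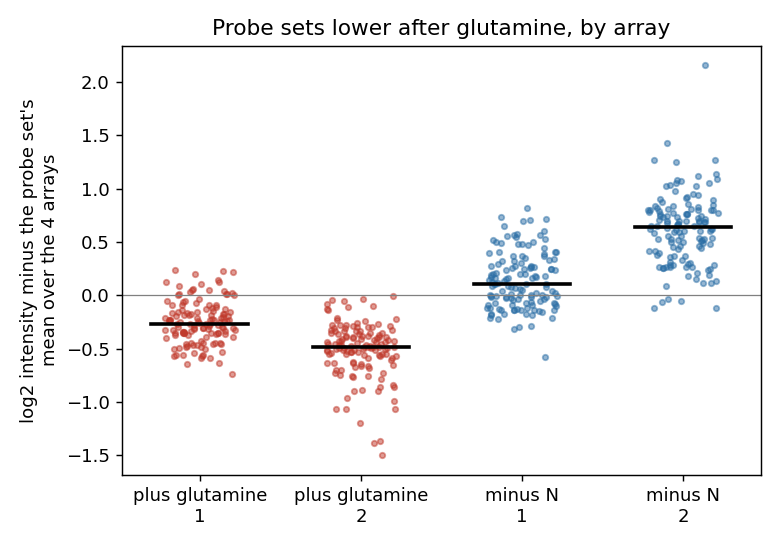
Log2 intensity of each of the 132 members relative to its own mean over the 4 arrays (vertical axis), by array (horizontal axis, plus glutamine left of minus N). Each point is a member, and black bars are the array medians, -0.26 and -0.48 with glutamine and 0.11 and 0.64 in minus N roots.

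Compared within replicate numbers, the members differed unevenly. The median log2 difference, plus glutamine minus minus N, was -0.34 within number 1 and -1.09 within number 2, and -0.71 between the group means. The difference was larger in size within number 2 for 111 of 132 members (84.1%), against 56.2% of all probe sets, and for 578 of the 699 probe sets of the mirrored rule (82.7%). A difference of at least 1.5-fold within both numbers was present for 15 members (11.4%), within number 2 alone for 101 and within number 1 alone for 16. Over all 57258 probe sets, with differences in either direction, these counts were 374 (0.653%), 3372 and 1346. In the mirrored set, 317 probe sets (45.4%) reached 1.5-fold within both numbers. Within number 1, 13 members differed by less than 0.1 on the log2 scale, beside 21678 of all probe sets. For these members the difference lay almost wholly in the arrays numbered 2. A difference of 2-fold or more was reached by 81 members within number 2 and by 5 within number 1. Over all probe sets, in either direction, it was reached by 984 and 249, so larger differences within number 2 were not particular to the members.

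**Figure D2:**
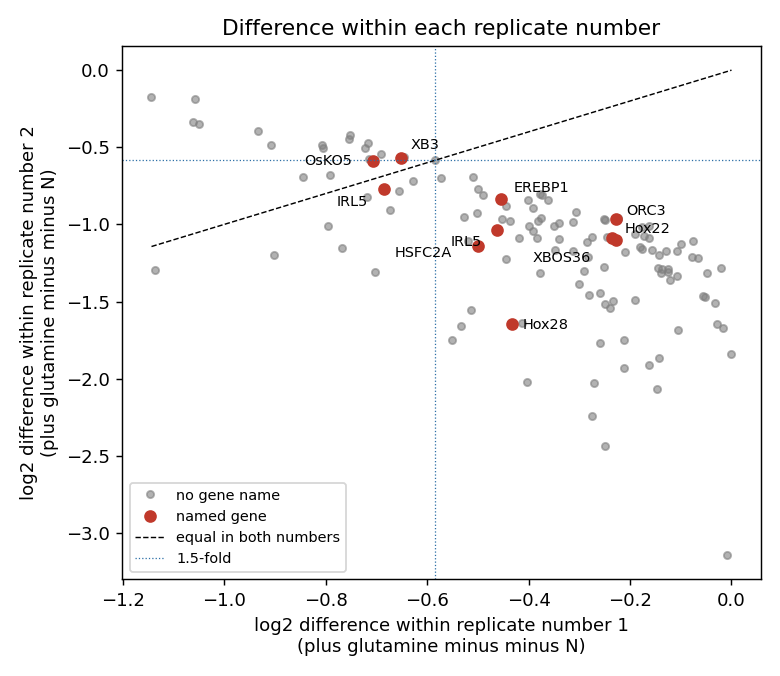
Log2 difference (plus glutamine minus minus N) within replicate number 1 (horizontal axis) and within number 2 (vertical axis) for each member; dotted lines mark 1.5-fold, the dashed line equal differences, and red points the named genes. Most points lie below the dashed line, 111 of 132 being larger in size within number 2, and 15 lie at or beyond both dotted lines.

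Of the 67 member genes, 9 carried a name, and 4 of these encode transcription factors. Hox28, an HD-Zip class II homeobox gene on chromosome 6, had intensities of 67.2 and 50.3 in plus glutamine roots, against 90.7 and 157.2 in minus N roots. Its minus N replicate 2 stood well above the other 3 arrays, and the groups did not overlap. The log2 difference of Hox28 was -1.04 (SE 0.34 from limma, n = 2 arrays per group), a 2.05-fold lower level, made up of -0.43 within number 1 and -1.64 within number 2, and it was -0.64 without minus N replicate 2. Hox22, an HD-Zip class I gene on chromosome 4, gave 185.8 and 162.2 with glutamine, against 218.7 and 345.1 in minus N roots. It had the same order of arrays as Hox28. The log2 difference of Hox22 was -0.66 (SE 0.29), with -0.24 and -1.09 within numbers 1 and 2, and -0.33 without minus N replicate 2.

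HSFC2A, a class C heat stress factor gene on chromosome 2, was the brightest probe set among the named genes, at 694.1 and 605.2 in plus glutamine roots, against 981.7 and 1333.7 in minus N roots. Both minus N arrays were clearly above both plus glutamine arrays. Its log2 difference was -0.82 (SE 0.25), with -0.50 and -1.14 within the numbers, and it lay between -0.60 and -1.04 when each array was left out in turn. EREBP1, an AP2/ERF gene on chromosome 2, was dimmer, at 24.3 and 17.6 with glutamine, against 33.3 and 31.4 in minus N roots (log2 difference -0.64, SE 0.25, and -0.41 without plus glutamine replicate 2). A brighter probe set of EREBP1 was not lower and its groups overlapped: it gave 2399.8 and 2864.5 with glutamine, against 2269.9 and 2680.9 in minus N roots, a log2 difference of 0.09.

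XBOS36 and XB3 belong to a family of E3 ubiquitin ligases with ankyrin repeats and a RING finger, and XB3 is known in rice to bind the immune receptor kinase XA21. The member probe set of XBOS36 had 222.0 and 179.9 in plus glutamine roots, against 260.0 and 386.5 in minus N roots. Minus N replicate 2 was the highest, and the log2 difference of -0.67 (SE 0.28) became -0.38 without it. Another, much dimmer probe set of XBOS36 overlapped between the groups, at 6.7 and 8.4 with glutamine and 8.2 and 6.3 in minus N roots. XB3 was dim, with 15.8 and 22.8 with glutamine, against 24.8 and 33.8 in minus N roots. Its highest plus glutamine value was close to its lowest minus N value, yet the difference was similar within the numbers, -0.65 and -0.57, for a log2 difference of -0.61 (SE 0.29). That of XB3 was -0.34 without plus glutamine replicate 1 and -0.39 without minus N replicate 2.

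IRL5 encodes a plant intracellular protein with leucine-rich repeats related to Ras-group proteins, and it had 2 member probe sets. The brighter probe set of IRL5 gave 116.7 and 94.4 in plus glutamine roots, against 187.6 and 161.3 in minus N roots. Its groups were well separated, and the log2 difference was -0.73 (SE 0.23), with -0.68 and -0.77 within the numbers. In the dimmer probe set the IRL5 values were 77.4 and 39.7 with glutamine, against 106.6 and 81.4 in minus N roots. Here plus glutamine replicate 1 came close to minus N replicate 2, and the log2 difference of -0.75 (SE 0.38) was -0.27 without plus glutamine replicate 2 and -1.23 without plus glutamine replicate 1. In both IRL5 probe sets minus N replicate 1 was above minus N replicate 2, which held for 28 of the 132 members.

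OsKO5, a gene for a cytochrome P450 related to ent-kaurene oxidase of gibberellin synthesis, had 143.2 and 146.8 in plus glutamine roots, against 233.6 and 220.9 in minus N roots. The repeats were close to each other in both groups and far apart between them. The log2 difference of OsKO5 was -0.65 (SE 0.21), with -0.71 and -0.59 within the numbers, and -0.61 to -0.69 when each array was left out in turn. ORC3, a subunit of the origin recognition complex that marks sites where DNA replication starts, was close to the low end of the intensities, at 10.5 and 11.5 with glutamine, against 12.3 and 22.4 in minus N roots. Only minus N replicate 2 stood clear of the other arrays of ORC3. Its log2 difference of -0.60 (SE 0.34) was -0.16 without that array and -1.03 without minus N replicate 1.

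**Figure D3:**
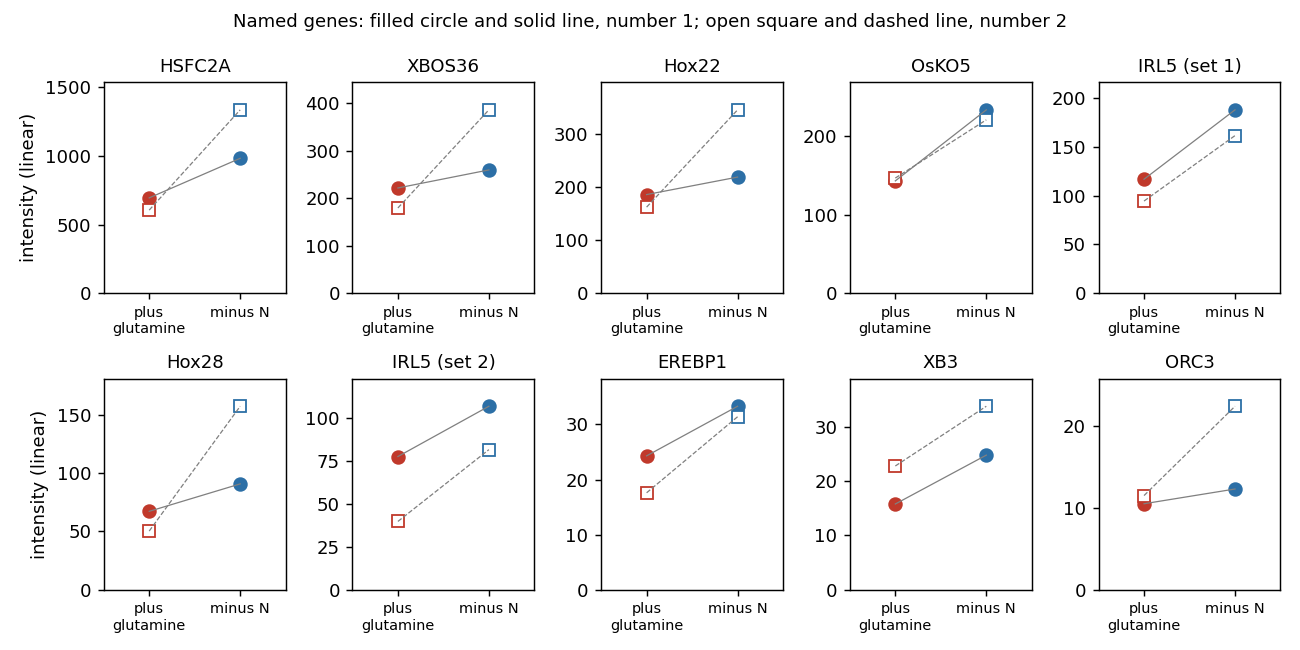
Intensity (vertical axes, linear and from 0, 1 panel per probe set) of the 10 member probe sets of the 9 named genes in each array, plus glutamine (red) left of minus N (blue); filled circles joined by solid lines are replicate number 1, open squares joined by dashed lines number 2, and set 1 and set 2 are the brighter and the dimmer probe set of IRL5. OsKO5 shows close repeats in both groups, while in Hox28, Hox22, XBOS36 and ORC3 minus N replicate 2 stands above the other arrays.

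The 10 members with the largest log2 differences included none of the named genes, and in 9 of them leaving out a single array moved the value by over 1.5 times. The largest belonged to a probe set with no annotated gene, at 16.1 and 12.2 in plus glutamine roots, against 16.2 and 107.7 in minus N roots. A single array, minus N replicate 2, was high, and its log2 difference of -1.58 (SE 0.87) was -0.21 without that array and -2.94 without minus N replicate 1. A second unannotated probe set had the same shape, with 17.7 and 15.7 with glutamine, against 19.6 and 65.7 in minus N roots (log2 difference -1.11, -0.23 without minus N replicate 2 and -1.98 without replicate 1 of that group). For LOC4328495 the values were 53.7 and 51.2 with glutamine, against 78.7 and 172.4 in minus N roots (-1.15, and -0.59 without minus N replicate 2). Minus N replicate 2 was likewise the highest of the 4 arrays in 2 further unannotated probe sets. One gave 23.9 and 19.4 with glutamine, against 31.6 and 78.8 in minus N roots (-1.21, -0.55 without that array and -1.87 without minus N replicate 1). The other gave 35.3 and 35.7 with glutamine, against 51.1 and 112.7 in minus N roots (-1.10, -0.53 without that array and -1.67 without minus N replicate 1). In all 5 the plus glutamine repeats were close to each other.

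Another 4 of these 10 members were set apart by a low plus glutamine replicate 2. LOC4333726 had 1012.9 and 304.1 in plus glutamine roots, against 1226.3 and 1436.0 in minus N roots, and its log2 difference of -1.26 (SE 0.57) was -0.39 without plus glutamine replicate 2 and -2.13 without replicate 1 of that group. LOC4348650 gave 44.0 and 16.8 with glutamine, against 52.3 and 90.9 in minus N roots (-1.34, -0.65 without plus glutamine replicate 2 and -2.04 without replicate 1). LOC4337580 gave 61.2 and 20 with glutamine, against 73.8 and 81.5 in minus N roots (-1.15, -0.34 without plus glutamine replicate 2 and -1.96 without replicate 1). In each of them plus glutamine replicate 1 lay nearer to the minus N arrays than to its own repeat. An unannotated probe set was of the same kind, at 325.2 and 130.9 with glutamine, against 376.5 and 498.3 in minus N roots (-1.07, -0.41 without plus glutamine replicate 2 and -1.73 without replicate 1). The exception among the 10, also with no annotated gene, stood at 67.7 and 80.5 with glutamine, against 148.7 and 197.7 in minus N roots. Its repeats were closer to each other than the groups were, and the log2 difference of -1.22 (SE 0.25) was made up of -1.14 and -1.30 within the numbers.

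The 10 members with the most similar differences within numbers 1 and 2 held OsKO5, XB3 and the brighter IRL5 probe set. LOC4331468, on chromosome 3, had both of its member probe sets in this group. One gave 169.3 and 138.4 in plus glutamine roots, against 278.5 and 244.6 in minus N roots, a log2 difference of -0.77 (SE 0.23) with -0.72 and -0.82 within the numbers. The other member probe set of LOC4331468 gave 87.6 and 71.6 with glutamine, against 142.9 and 107.4 in minus N roots (-0.65, SE 0.26). The groups did not overlap in either, with the wider margin in the first. Yet LOC4331468 also had 2 further probe sets whose groups overlapped, with log2 differences of 0.04 and 0.14.

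LOC4324658, on chromosome 1, had nearly equal repeats, at 41.6 and 41.9 with glutamine, against 65.1 and 61.9 in minus N roots (log2 difference -0.60, SE 0.20). LOC4345879, on chromosome 8, was dimmer, at 19.0 and 17.2 with glutamine, against 32.9 and 27.5 in minus N roots (-0.73, SE 0.22). In these 2 probe sets the groups were clearly separated. LOC4345879 also had 2 further probe sets whose groups overlapped, the brighter of them at 48.3 and 54.8 with glutamine and 42.3 and 64.7 in minus N roots, with log2 differences of -0.02 and -0.17. LOC4345767 gave 20.1 and 14.6 with glutamine, against 29.9 and 23.7 in minus N roots (-0.64, and -0.41 without plus glutamine replicate 2). An unannotated probe set was among the dimmest members, at 6.6 and 5.6 with glutamine, against 10.2 and 9.2 in minus N roots (-0.67, and -0.45 with dim values raised to the 20th percentile). At such intensities no detection call was at hand to say how far the signal lay above background.

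The 10 members with the highest intensities held HSFC2A and LOC4333726, described above, and 6 further genes that carry a locus number alone. LOC4335455, on chromosome 4, had 2 member probe sets, of which the brighter gave 1820.7 and 1427.5 in plus glutamine roots, against 2009.2 and 3281.9 in minus N roots. The second probe set of LOC4335455 gave 682.2 and 645.0 with glutamine, against 830.6 and 1393.3 in minus N roots. Both had minus N replicate 2 far above the other arrays, and their log2 differences of -0.67 and -0.70 were each -0.32 without it, and -1.03 and -1.07 without minus N replicate 1. LOC4344276 gave 1115.7 and 981.2 with glutamine, against 1446.8 and 1907.1 in minus N roots (log2 difference -0.67, SE 0.24). For LOC4348585 the values were 521.5 and 379.2 with glutamine, against 660.2 and 810.5 in minus N roots (-0.72, SE 0.26). In these 2 genes no single array, when left out, moved the difference by over 1.5 times.

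Single arrays weighed more in the other bright members. LOC4350782 gave 1845.0 and 1090.5 with glutamine, against 1943.7 and 2345.8 in minus N roots (log2 difference -0.59, -0.21 without plus glutamine replicate 2 and -0.97 without replicate 1). LOC4338870 gave 787.0 and 341.2 with glutamine, against 787.4 and 1220.0 in minus N roots (-0.92, -0.32 without plus glutamine replicate 2, -1.52 without plus glutamine replicate 1 and -0.60 without minus N replicate 2). Its arrays numbered 1 were all but equal, with a log2 difference of -0.0007 within number 1. LOC4332479 gave 416.5 and 365.8 with glutamine, against 475.0 and 1027.9 in minus N roots (-0.84, -0.28 without minus N replicate 2 and -1.40 without replicate 1 of that group). An unannotated probe set was similar, at 622.2 and 519.5 with glutamine, against 670.3 and 1308.3 in minus N roots (-0.72, -0.24 without minus N replicate 2 and -1.20 without replicate 1 of that group).

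In intensity, the members lay between the probe sets of the mirrored rule and the array as a whole. Their median of the mean log2 intensity was 5.69, with a range of 2.70 to 10.99, against a median of 7.02 in the mirrored set and 4.37 over all probe sets. Of the members, 29 were dimmer than the median probe set. For 9 members at least 1 array was below an intensity of 7.1, the 20th percentile of all values. These levels are signals of single probe sets and do not rank transcripts by abundance.

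**Figure D4:**
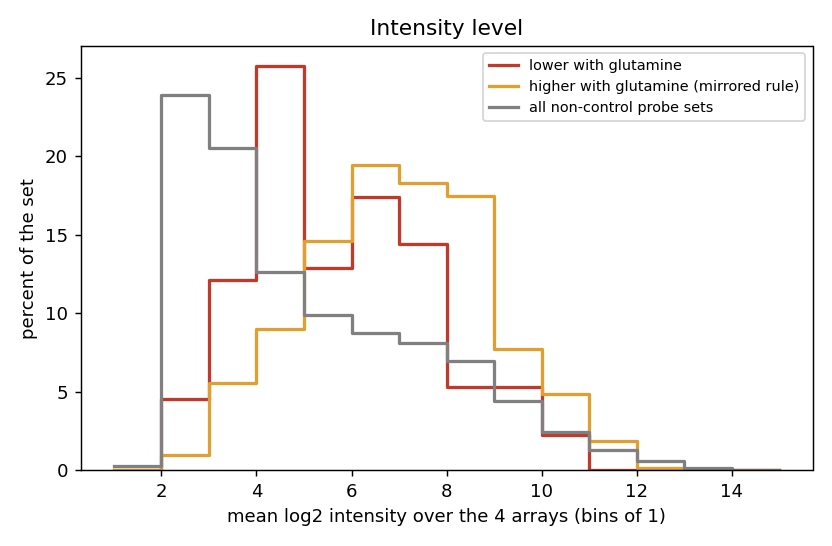
Share of probe sets (vertical axis, percent) by mean log2 intensity over the 4 arrays in bins of 1 unit (horizontal axis) for the 132 members, the 699 probe sets of the mirrored rule and all 57258. The members' median of 5.69 lies between 7.02 for the mirrored set and 4.37 for all.

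Folds among the members ran from 1.5 to 2.98, with 18 of at least 2-fold, out of 19 (0.0332%) among all probe sets, and 56 under 1.6-fold. The smallest belonged to an unannotated probe set at 4.8 and 6.4 in plus glutamine roots, against 7.2 and 9.6 in minus N roots, which is 1.5-fold exactly, and its log2 difference of -0.58 was -0.38 without plus glutamine replicate 1 and also without minus N replicate 2. With dim values raised to the 20th percentile it was -0.23. Next above it were another unannotated probe set, at 15.2 and 19.5 with glutamine, against 25.6 and 26.1 in minus N roots, and LOC4351830. LOC4351830 gave 57.5 and 48.2 with glutamine, against 64.4 and 97.1 in minus N roots (-0.59, -0.29 without minus N replicate 2 and -0.88 without replicate 1 of that group). The nearest probe sets outside had folds of 1.4993, 1.4984 and 1.498. The first of them gave 15.0 and 23.4 with glutamine, against 30.7 and 25.7 in minus N roots. The second, LOC4331620, gave 23.8 and 27.5 with glutamine, against 31.6 and 46.5 in minus N roots, and the third 236.4 and 132.9 with glutamine, against 251.7 and 280.1 in minus N roots. Values on both sides of the threshold were thus alike.

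By annotation, 71 members (53.8%) had 1 gene in the platform's table, against 64.2% of the mirrored set and 39.2% of all probe sets. Probe sets whose ID ends in _s_at, which can match several related transcripts, made up 18 members (13.6%), against 6.29% of the mirrored set and 4.94% of all. Those ending in _x_at, prone to cross-hybridisation, made up 11 members (8.33%), against 11.3% and 12.5%. Signal from related transcripts can therefore enter the values of these members, which include XBOS36, the brighter probe set of LOC4335455 and both member probe sets of LOC4331468.

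The member genes were spread over all 12 chromosomes, and their share of the genes with a probe set ran from 0.104% on chromosome 9 (1 of 962) to 0.771% on chromosome 12 (7 of 908). In the order of the gene table, LOC4324873 and LOC9271802 on chromosome 1 had 1 gene between them, and LOC4345879 and LOC4345887 on chromosome 8 had 7. No other 2 member genes lay within 10 places of each other.

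Probe sets that met the rule are members, so none of the other probe sets of a member gene could meet it. Of the member genes, 4 had 2 member probe sets each. A total of 15 member genes had 20 further probe sets, of which 3 were lower without overlap, beside 8.22% of all probe sets. They belonged to LOC9271802 (log2 difference -0.56), LOC4337580 (-0.46) and LOC4342731 (-0.19). Over the 20 the median log2 difference was -0.05, with a range of -0.56 to 0.14. The LOC9271802 probe set, at 764.5 and 712.7 with glutamine, against 944.5 and 1260.9 in minus N roots, was brighter than the member of that gene. Of the 20, 12 were brighter than the member probe set of their gene. An example is LOC4339475, whose member was among the dimmest, while its brightest probe set gave 5254.5 and 4360.4 with glutamine and 5146.3 and 4356.4 in minus N roots, with overlapping groups. Among genes with 2 member probe sets, LOC4326757 gave 100.2 and 78.4 with glutamine, against 101.7 and 190.9 in minus N roots in one, and 104.1 and 99.2 with glutamine, against 109.9 and 230.0 in minus N roots in the other. Minus N replicate 2 was far above the other arrays in both, and the log2 differences of -0.65 each were -0.20 and -0.11 without it, and -1.11 and -1.18 without minus N replicate 1.

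**Figure D5:**
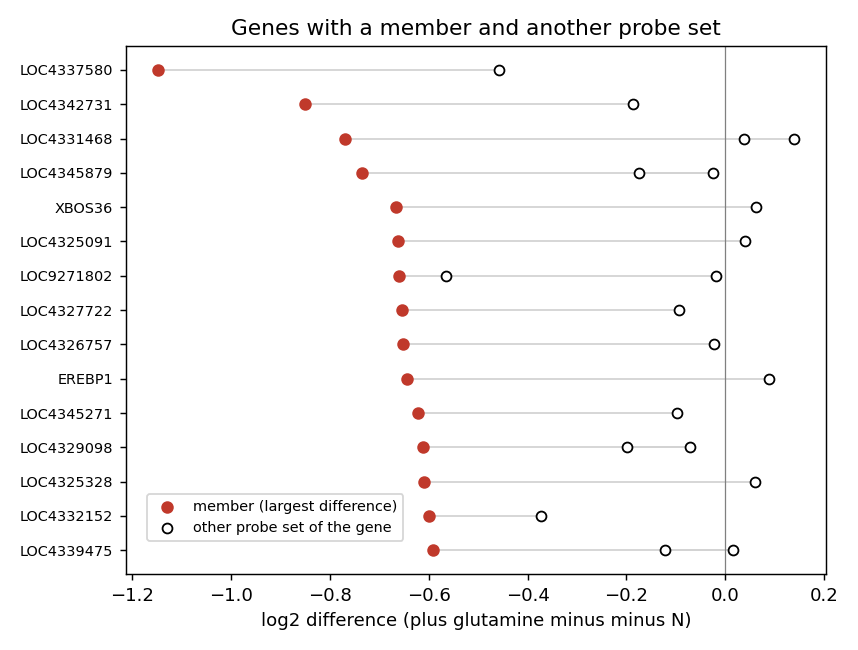
Log2 difference (plus glutamine minus minus N, horizontal axis) for the 15 member genes that also had other probe sets (rows): red points are the member with the largest difference, open circles the other probe sets. Most open circles lie near 0, with a median of -0.05, and those of LOC9271802, LOC4337580 and LOC4332152 lie farthest to the left. None of the open circles could meet the rule, since a probe set that met it is a member.

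To set the members beside other genes of their kind, genes were grouped by symbol, taking the brightest probe set of each. Among all 17905 genes, 1616 (9.03%) were lower and 1807 (10.1%) higher without overlap, with a median log2 difference of -0.01. Of 48 genes matched by symbol as homeobox or HD-Zip, 8 were lower and 6 higher, with a median of 0.03, and Hox28 and Hox22 were the members. Members are lower by the rule itself, and without them 6 of 46 were lower. The symbols hb1 and HB2 were each shared by different genes, so the hb genes of this list may not all be homeobox genes. Their groups overlapped. Of 43 heat shock genes, a list that includes the heat stress factors, 6 were lower and 6 higher (median 0.05), and the member was HSFC2A. Without HSFC2A, 5 of 42 were lower. Cytochrome P450 genes numbered 30, of which 3 were lower and 8 higher (median 0.03), and gibberellin metabolism genes 9, of which 1 was lower and 1 higher (median 0.06). OsKO5 was the member in both lists, and without it 2 of 29 and 0 of 8 were lower. It entered the gibberellin list by its symbol alone, and whether it acts in gibberellin synthesis was not tested. Of 6 genes matched by symbol as AP2/ERF other than DREB1, 1 was lower and 1 higher (median 0.07), and the brightest probe set of EREBP1 was neither. One of the 6, AP25, was matched by its first letters alone and may belong to another family. Its groups overlapped. AP2/ERF genes without such a symbol were not counted.

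The other 11 lists with at least 3 genes held no member gene. They covered MYB and bHLH transcription factors, zinc finger proteins of the C3H and SAP families, ribosomal proteins, ethylene, PP2C phosphatases with a few other genes of abscisic acid signalling, peptide and nitrate transport, sugar, cell wall, peroxidases and the circadian clock. Ribosomal protein genes had 8 of 25 lower and 1 higher, but with small differences (median -0.07, lowest -0.27). Of 63 zinc finger genes 10 were lower and 11 higher. Of 66 genes in the abscisic acid list 3 were lower and 9 higher, but most of them are PP2C genes of the whole family, of which only some are known to act in that pathway. Of 35 cell wall genes 1 was lower and 3 higher. MYB genes had 2 of 12 lower and 3 higher, bHLH genes 1 of 12 and 2, ethylene genes 1 of 11 and 4, and clock genes 1 of 7 and 0. No gene was lower without overlap among 23 sugar, 3 peroxidase and 3 peptide and nitrate transport genes, of which 1, 0 and 1 were higher.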

How the data were processed

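Root RNA of 2 plus glutamine and 2 minus N samples was hybridised to the GeneChip Rice Genome Array, per the labels' protocols after phenol extraction, with biotinylated cRNA made from 10 ug of total RNA. The deposited values are linear intensities, 1 for each probe set on each array. The submitters' processing notes name GCOS and RMA without a role, and the summary and scaling steps are not given in the sources used here. Values ran from 2.9 to 21202.3, and no detection calls were used.

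The 123 control probe sets were left out, and the log2 values were not normalized again. The rule was applied to log2 means, with a fold of exactly 1.5 counted. A fit with limma 3.58.1 (R 4.3.3; lmFit, eBayes, group as the single term) over 57258 probe sets gave the standard errors and two-sided p-values, adjusted by Benjamini-Hochberg with a threshold of 0.05. It was also run on simulated data with independent noise and no effect of the replicate number. That setting differs from these data, so the run does not show how the fit performs on them. Precision is limited by having 2 arrays in each group.

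In the platform annotation 22436 probe sets had 1 gene, 95 had several and 34727 had none. All 17905 genes were found, by gene number, in a RefSeq table of assembly ASM3414082v1, which gave symbols for 2458 and no descriptions. Hence no function is given for locus numbers. The members and lists were chosen with earlier results of these data known. Lists were patterns on symbols, and 2 of the 18 found under 3 genes. Named were all members with a gene symbol, the 10 largest, 10 brightest and 10 most even members, those at the threshold and genes with 2 member probe sets; those with no annotated gene are given by rank, without an ID. Alternatives covered centring, quantile normalization, a floor, dim and cross-hybridising probe sets, folds, 1 probe set per gene, each array left out, and variance priors. Figures were drawn with matplotlib 3.10.9.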

Additional observations from a re-analysis of the deposited data

How the results depend on the processing

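The count of 132 was 140 with median centring, 148 with quantile normalization, 124 with a floor at the 20th percentile, and 103 both without the dimmer 50% of probe sets and without those ending in _x_at or _s_at. It was 18 at 2-fold, 1133 at a lower minimum fold, 56 with 1 probe set per gene and 15 with 1.5-fold required within each replicate number. Leaving out 1 array gave 1035 to 2726, since 3 values overlap less often than 4. Of the 132 members, 51 met the rule without minus N replicate 2, 75 without plus glutamine replicate 2, 115 without minus N replicate 1 and 119 without plus glutamine replicate 1. The members' median log2 difference ran from -1.0 without minus N replicate 1 to -0.49 without minus N replicate 2. With the floor, the 2 named members that moved most were dim, with log2 differences of -0.23 in place of -0.58 and -0.45 in place of -0.67. No named member changed sign, which the choice of members fixes. With limma, 0 probe sets were called lower under every alternative run, with 25 to 963 lower at an unadjusted p under 0.05. With the replicate number as a block, 0 were called lower and 769 were lower unadjusted. Deviations of same-numbered arrays correlated at 0.67 over only 2 pairs, and the labels do not say what a number shares.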

Other observations

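Relatives of the named members were counted after their values were seen, with the brightest probe set of each gene and without the members themselves, beside 9.03% of all genes lower without overlap. Of the 7 other IRL genes, 4 were lower and 0 higher without overlap, with log2 differences between -0.25 and 0.12. IRL3 gave 622.9 and 682.6 in plus glutamine roots, against 705.9 and 737.3 in minus N roots, a difference of -0.15. Of the 4 other genes of the XB3 family, XBOS35, XBOS33 and XBOS31 were lower without overlap, with log2 differences of -0.32, -0.13 and -0.12, and XBOS32 was not, at 0.14. XBOS35 gave 2225.5 and 2331.1 with glutamine, against 2670.8 and 3029.9 in minus N roots. Of the 23 other genes named Hox, 4 were lower (HOX6, HOX8, hox14 and HOX15) and 4 higher. HOX6 gave 308.5 and 316.0 with glutamine, against 397.1 and 418.2 in minus N roots, with close repeats and a log2 difference of -0.38. Other families did not share this. Of the 4 other origin recognition complex genes, 0 were lower and 1 was higher, with log2 differences between -0.11 and 0.43. Of the 2 other kaurene oxidase-like genes, 0 were lower and 0 higher (-0.07 and 0.26). Of the 2 other class C heat stress factor genes, 1 was lower and 0 higher (-0.10 and -0.05).

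HOX2, the gene next to Hox28 in the gene table with 0 genes between them, had 226.2 and 123.1 in plus glutamine roots, against 226.2 and 381.4 in minus N roots. Its arrays numbered 1 were equal, so that it missed the condition of no overlap, while within number 2 its log2 difference was -1.63, beside -1.64 for Hox28. It was chosen after its values were seen.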
